A study of Mus musculus with 18 samples.

Results

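The genes described here encode the machinery that fuses vesicles with their target membranes, above all synaptic vesicles with the nerve terminal. They were chosen by symbol: the numbered Syt, Stx, Stxbp, Vamp, Snap, Cplx and Rims families, Rab3a to Rab3d, the Sv2 genes and the synapsins Syn1 to Syn3, together with Syp, Sypl, Bsn, Pclo and Unc13a. The array named 68 such genes. Of them, 46 passed the filter for signal above background (a detection p under 0.01 on at least 2 of 17 arrays), out of 8922 genes that passed on the array as a whole.

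RNA was from cultured mouse neurons and was measured on Illumina bead arrays in 6 groups. The groups were homocysteic acid (HCA) alone, HCA with 0.1 µM adaptaquin, HCA with 1 µM adaptaquin, untreated neurons, 0.1 µM adaptaquin alone, and 1 µM adaptaquin alone. HCA is a glutamate analogue that blocks cystine uptake, depletes glutathione and kills immature neurons by oxidative stress, and adaptaquin is an inhibitor of the HIF prolyl hydroxylases. Each group had 3 arrays, except that HCA alone had 2 in all values below, since the third of its arrays carries the word outlier in its title and was set aside. The labels used here give no strain, brain region, age of the cultures, HCA dose or exposure time, nor whether each array had a culture of its own, so the p-values rest on a spread between arrays that may be technical. In whole cultures, fewer cells of a type and less RNA per cell cannot be told apart.

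A vesicle fuses when a SNARE on it, such as VAMP2, coils together with target membrane SNAREs, a syntaxin and SNAP-25. Proteins of the Stxbp family regulate that assembly, complexins clamp it, and synaptotagmins trigger it when calcium enters. At the active zone RIM holds vesicles through Rab3, and piccolo and bassoon are large scaffolds. Synaptophysin, the SV2 proteins and the synapsins sit on the vesicle itself. Dense core vesicles, which carry neuropeptides and neurotrophins, use much of the same machinery, and several syntaxins of these families act inside the cell, between Golgi and endosomes.

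On the 17 arrays, 42.8% to 47.6% of probes were detected, and upper quartiles of intensity ran between 333 and 563. Chac1, an enzyme that degrades glutathione, and the activity gene Fos were listed as checks of HCA. They rose by 2.33 ± 0.098 and 2.84 ± 0.15 on the log2 scale (SE, adjusted p = 6.2e-09 and 2.8e-08, limma, mean over the doses). Both were chosen with earlier results of these arrays known, so their rise is not independent evidence of the treatment. Of 20 neuron markers, 18 passed the filter, but Nefl and Nefh did not. Among markers of other cells, 8 of 12 for astrocytes, 10 of 15 for dividing progenitors, 6 of 12 for oligodendrocytes, 7 of 14 for microglia and 5 of 13 for vessels and fibroblasts passed. Of the astrocyte markers, Gfap, Aqp4, Aldh1l1 and Slc1a3 passed and S100b did not. Olig1 and Mbp of oligodendrocytes passed and Olig2 did not, Aif1 and Cx3cr1 of microglia passed and Itgam did not, and Flt1 and Dcn of vessels and fibroblasts passed and Pecam1 and Cdh5 did not.

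The promoters below are shown for the called genes Rims3 and Syp, then for the vesicle genes in which a transcription factor motif was found, and for the dense core cargo genes with a cyclic AMP response element. They are RefSeq sequences of GRCm38.p6, written in the direction of transcription. The first pair gives the 250 bases before the transcription start, where none of the 4 motifs searched occurred.
Rims3, chr4:120854549-120854798, plus strand: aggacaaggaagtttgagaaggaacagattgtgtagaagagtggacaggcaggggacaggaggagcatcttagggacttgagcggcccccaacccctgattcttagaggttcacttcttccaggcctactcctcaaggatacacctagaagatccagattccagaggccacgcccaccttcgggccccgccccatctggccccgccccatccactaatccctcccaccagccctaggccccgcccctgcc
Syp, chrX:7638330-7638579, plus strand: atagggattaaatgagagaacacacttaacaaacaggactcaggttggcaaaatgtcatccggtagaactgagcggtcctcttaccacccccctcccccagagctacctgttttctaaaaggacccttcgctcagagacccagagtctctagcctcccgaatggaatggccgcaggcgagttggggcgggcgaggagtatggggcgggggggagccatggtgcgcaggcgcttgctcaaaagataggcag

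Among the vesicle genes, Syn1 held a cyclic AMP response element, the site of CREB and related factors, Syt1 held a C/EBP-ATF composite element, the kind of site that ATF4 binds with C/EBP factors, and Sypl held an AP-1 site, bound by Fos and Jun proteins. Capitals mark the motif on either strand.
Syn1, chrX:20921044-20921103, minus strand: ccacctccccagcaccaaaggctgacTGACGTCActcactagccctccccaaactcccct
Syt1, chr10:109009175-109009234, minus strand: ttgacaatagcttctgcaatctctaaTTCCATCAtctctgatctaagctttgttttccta
Sypl, chr12:32953985-32954043, plus strand: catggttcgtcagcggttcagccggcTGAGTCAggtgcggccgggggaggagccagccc

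The cargo genes Chgb (chromogranin B), Scg2 (secretogranin II) and Sst (somatostatin) each held the cyclic AMP response element, again in capitals.
Chgb, chr2:132781544-132781603, plus strand: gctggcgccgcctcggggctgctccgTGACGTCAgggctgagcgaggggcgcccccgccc
Scg2, chr1:79440061-79440120, minus strand: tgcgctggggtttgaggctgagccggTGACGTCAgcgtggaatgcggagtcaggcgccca
Sst, chr16:23890859-23890918, minus strand: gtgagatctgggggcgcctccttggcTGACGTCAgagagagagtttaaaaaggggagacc

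Motifs were searched on both strands in the 250 bases before the start, in the 39 of 46 vesicle genes with a promoter in the table. The cyclic AMP response element, TGACGTCA, was in 1 of 39 (2.56%), against 3 of 13 cargo genes (23.1%) and 1.77% of 27025 genes. The C/EBP-ATF element, TGATGNAA, was in 1 of 39 vesicle genes, 0 of 13 cargo genes and 3.91% of all genes. The AP-1 site, TGANTCA, was in 1 of 39 vesicle genes, 2 of 13 cargo genes (Pcsk1n and Bdnf) and 7.82% of all genes. The left half-site of REST, the repressor of neuronal genes outside neurons, TTCAGCACC, was in Syn1 alone of the 39, in 0 of 13 cargo genes and in 0.348% of all genes. A match is a run of letters, not a known binding site, and matches of different motifs overlapped in 2 of 32851 promoters.

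Several of the best known release genes could not be measured. Snap25, the neuronal target membrane SNARE, had 1 probe, which was not well above background on any of the 17 arrays (lowest detection p 0.332). Bsn (bassoon) was likewise detected on 0 arrays. The other 20 genes below the filter, also detected on 0 of 17 arrays, were Cplx3, Cplx4, Rab3c, Rims4, Stx2, Stx16, Stx19, Stxbp3, Stxbp6, Syn3, Syt2, Syt3, Syt7, Syt8, Syt10, Syt12, Syt14, Syt15, Syt17 and Vamp5. Unc13a and Sv2c were not analysed here. Of the 46 that passed, 40 were detected on all 17 arrays. Stx3 was detected on 12, Vamp8 on 15, Syt13 on 10, Rims1 on 8, Vamp1 on 5 and Syt6 on 2, so their changes are less certain.

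Differences with HCA were small across the vesicle machinery. Counts in this paragraph and the next are from limma without the replicate numbers described below, with Benjamini-Hochberg adjustment over 8922 genes. Averaged over the adaptaquin doses, 2 of 46 genes rose and 0 fell at an adjusted p under 0.05. That is 4.35% of them, against 11.2% of all genes, of which 5.32% rose and 5.87% fell. At an unadjusted p under 0.05 there were 7 (15.2%), against 24.9% of all genes. The genes called were Rims3 and Syp. The median log2 change was 0.036 for the vesicle genes and -0.0068 for all genes, with vesicle genes ranging from -0.46 (Sv2b) to 0.28 (Rims3). The 95% interval lay within 1.5-fold either way for 44 of 46 (95.7%), compared with 89.9% of all genes, and reached 2-fold for 0 of 46. The mean log2 intensity of the 46 genes was 9.15 to 9.30 on the HCA arrays and 9.18 to 9.27 on the arrays without HCA.

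At each dose taken alone, 0 of 46 vesicle genes passed the test. The share of all genes that passed was 0.751% without adaptaquin, 1.91% at 0.1 µM and 1.19% at 1 µM. At an unadjusted p under 0.05 there were 5, 5 and 0 vesicle genes, where 11.5%, 12.6% and 11.5% of all genes met that limit.

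**Figure D1:**
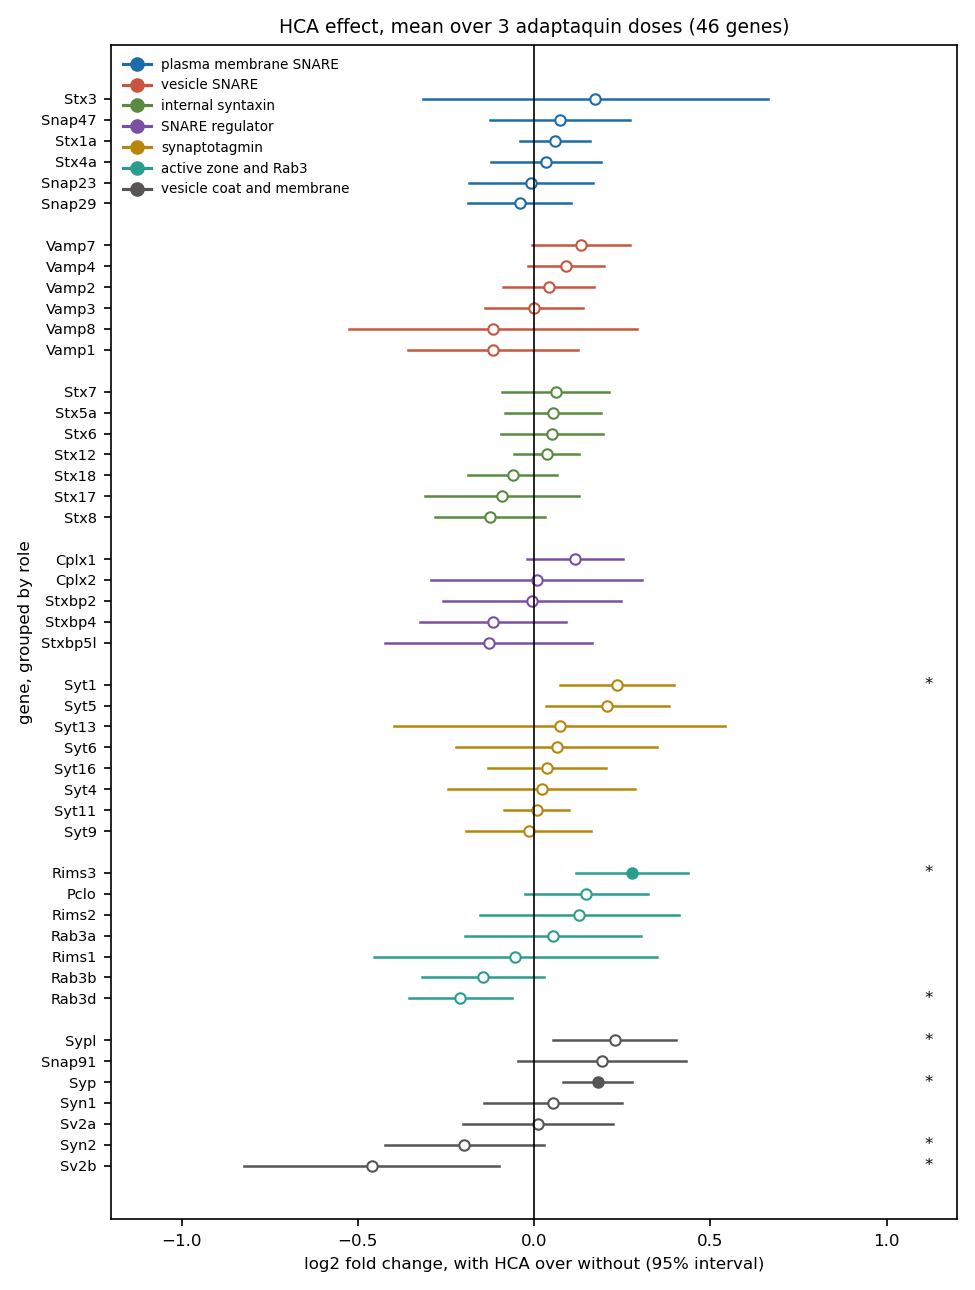
The log2 fold change with HCA over without, averaged over the 3 adaptaquin doses, for each of the 46 vesicle genes ordered by role, with 95% intervals as horizontal lines and colours for roles. Filled points mark genes called without the replicate number in the model and asterisks those called with it. Most genes sit near 0, Rims3 and Syp lie to the right, and Sv2b lies farthest to the left at -0.46.

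The replicate numbers in the labels were shared by arrays across all groups, and arrays of the same number deviated from their group means together. With the number in the model, 4 vesicle genes rose and 3 fell with HCA, 15.2% of 46 against 20.6% of all genes, of which 9.31% rose and 11.3% fell. The 4 were Rims3, Syp, Syt1 and Sypl, and the 3 were Rab3d, Sv2b and Syn2. HCA alone kept no array of number 3, so gaps between numbers enter the HCA effects of the model without the number. With the number, the change of Sv2b was -0.39 in place of -0.46, and that of Rab3a 0.090 in place of 0.054. Pairs of arrays that shared a dose and a number differed one way in all 8 pairs for 6 of 46 vesicle genes (13.0%), against 14.5% of all genes: Rims3, Sypl and Vamp7 were higher with HCA in each pair, and Sv2b, Syn2 and Stx8 were lower.

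Among genes of the active zone, Rims3, a short RIM protein without the Rab3-binding part of RIM1, was higher with HCA. It had log2 intensities of 10.81 and 10.95 with HCA alone, 10.93, 10.91 and 10.74 with HCA and 0.1 µM adaptaquin, and 10.81, 10.67 and 10.48 with HCA and 1 µM. Without HCA it had 10.66, 10.66 and 10.24 in untreated neurons, 10.62, 10.61 and 10.50 at 0.1 µM, and 10.38, 10.60 and 10.39 at 1 µM. The groups did not overlap at 0 or 0.1 µM and overlapped at 1 µM. The mean change was 0.28 ± 0.074 on the log2 scale (SE, adjusted p = 0.025, or 0.0048 with the replicate number). Leaving out any of 4 single arrays brought Rims3 above the threshold, with a highest adjusted p of 0.087 without HCA replicate 2.

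Rab3d, a small GTPase best known from secretory granules outside the brain, was called lower with HCA only when the replicate number was in the model. It had 10.09 and 9.91 with HCA alone, 10.04, 9.99 and 10.25 with HCA and 0.1 µM, and 10.19, 10.16 and 10.32 with HCA and 1 µM. Without HCA it had 10.26, 10.16 and 10.34 in untreated neurons, 10.39, 10.25 and 10.44 at 0.1 µM, and 10.14, 10.31 and 10.56 at 1 µM. The groups were apart without adaptaquin and touched or overlapped at both doses. The change was -0.21 ± 0.068 (adjusted p = 0.063, and 0.014 with the replicate number), and 7 of 8 pairs were lower with HCA.

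The larger scaffolds and the neuronal Rab3 gave no call. Pclo (piccolo) differed by 0.15 ± 0.081 (adjusted p = 0.29), Rims1 by -0.053 ± 0.19 (0.90), Rims2 by 0.13 ± 0.13 (0.62), Rab3a by 0.054 ± 0.12 (0.83) and Rab3b by -0.14 ± 0.081 (0.30). The standard error of Rims1, a gene detected on 8 arrays, was among the widest of the family.

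On the vesicle membrane, Syp (synaptophysin), the most used marker of synaptic vesicles, was higher with HCA. It had 12.35 and 12.29 with HCA alone, 12.30, 12.22 and 12.26 with HCA and 0.1 µM adaptaquin, and 12.14, 12.26 and 12.12 with HCA and 1 µM. Without HCA it had 12.03, 12.14 and 12.003 in untreated neurons, 12.06, 12.02 and 12.05 at 0.1 µM, and 12.20, 12.09 and 12.05 at 1 µM. Every HCA array lay above every matched array at 0 and at 0.1 µM, and the groups overlapped at 1 µM. The change was 0.18 ± 0.045 (adjusted p = 0.019, and 0.0098 with the replicate number), an excess of 1.13-fold, with 7 of 8 pairs higher. Without HCA replicate 1 the adjusted p was 0.064. With median scaling in place of quantile normalization neither gene passed (adjusted p = 0.16 for Syp and 0.21 for Rims3), nor without all arrays of any 1 replicate number (0.13 to 0.28 for Syp, 0.052 to 0.27 for Rims3).

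Sypl, a relative of synaptophysin found on vesicles of many cell types, had 9.94 and 9.92 with HCA alone, 10.07, 10.02 and 9.56 with HCA and 0.1 µM, and 9.89, 9.78 and 9.77 with HCA and 1 µM. Its values without HCA were 9.63, 9.74 and 9.68 in untreated neurons, 9.72, 9.89 and 9.40 at 0.1 µM, and 9.57, 9.66 and 9.54 at 1 µM. The groups overlapped at 0.1 µM and not at 0 or 1 µM. All 8 pairs were higher with HCA, by 0.23 ± 0.082 on average, with an adjusted p of 0.091 that became 0.042 with the replicate number.

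Sv2b, a transporter-like vesicle glycoprotein, had the most negative difference of the family. It had 7.27 and 7.32 with HCA alone, 7.27, 7.08 and 8.15 with HCA and 0.1 µM, and 7.30, 7.13 and 7.78 with HCA and 1 µM. Without HCA it had 7.50, 7.78 and 8.10 in untreated neurons, 7.90, 7.73 and 8.29 at 0.1 µM, and 7.58, 7.55 and 8.31 at 1 µM. In every group with 3 arrays the array numbered 3 was the highest, and all 8 pairs were lower with HCA. The change was -0.46 ± 0.17 with an adjusted p of 0.099, and -0.39 ± 0.072 with an adjusted p of 0.0023 once the number was in the model. Within numbers 1, 2 and 3 the mean paired differences were -0.38, -0.51 and -0.34. Sv2b was also the only vesicle gene called at a single dose in that model, at 0.1 µM, where 5.97% of all genes were called. At 0 and 1 µM that model called 0 of 46 and 2.82% and 4.51% of all genes. Its close relative Sv2a differed by 0.011 ± 0.10 (adjusted p = 0.96).

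Of the synapsins, which tether vesicles in the reserve pool, Syn2 was called lower with HCA only with the replicate number in the model. Syn1 was called in neither model. Syn2 had 8.52 and 8.70 with HCA alone, 8.54, 8.77 and 8.22 with HCA and 0.1 µM, and 8.62, 8.84 and 8.19 with HCA and 1 µM. Without HCA it had 8.64, 8.80 and 8.75 in untreated neurons, 8.61, 9.08 and 8.85 at 0.1 µM, and 8.67, 8.86 and 8.53 at 1 µM. The groups overlapped at every dose, yet all 8 pairs were lower with HCA. The difference was -0.20 ± 0.11 (adjusted p = 0.27, and 0.043 with the replicate number), with within-number means of -0.083, -0.14 and -0.49. Syn1 differed by 0.053 ± 0.091 (adjusted p = 0.78). The clathrin adaptor Snap91, which the symbol rule takes in although it is no SNARE, differed by 0.54 ± 0.21 with HCA alone (adjusted p = 0.31) and by 0.19 ± 0.11 over the doses (adjusted p = 0.32).

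Of the 8 synaptotagmins that passed, none passed the test without the replicate number. Syt1, the calcium sensor of fast release, had 10.11 and 10.20 with HCA alone, 10.29, 10.25 and 9.996 with HCA and 0.1 µM, and 10.07, 10.13 and 9.90 with HCA and 1 µM. It had 10.18, 9.82 and 9.84 in untreated neurons, 9.85, 9.96 and 9.85 at 0.1 µM without HCA, and 9.87, 10.01 and 9.61 at 1 µM without HCA. The groups were apart at 0.1 µM and overlapped at 0 and 1 µM. The difference was 0.23 ± 0.075 (adjusted p = 0.062, and 0.022 with the replicate number), and 7 of 8 pairs were higher. Syt5, another calcium-binding synaptotagmin, differed by 0.21 ± 0.082 (adjusted p = 0.13, and 0.053 with the number). The other 6, Syt4, Syt6, Syt9, Syt11, Syt13 and Syt16, lay between -0.016 and 0.072.

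**Figure D2:**
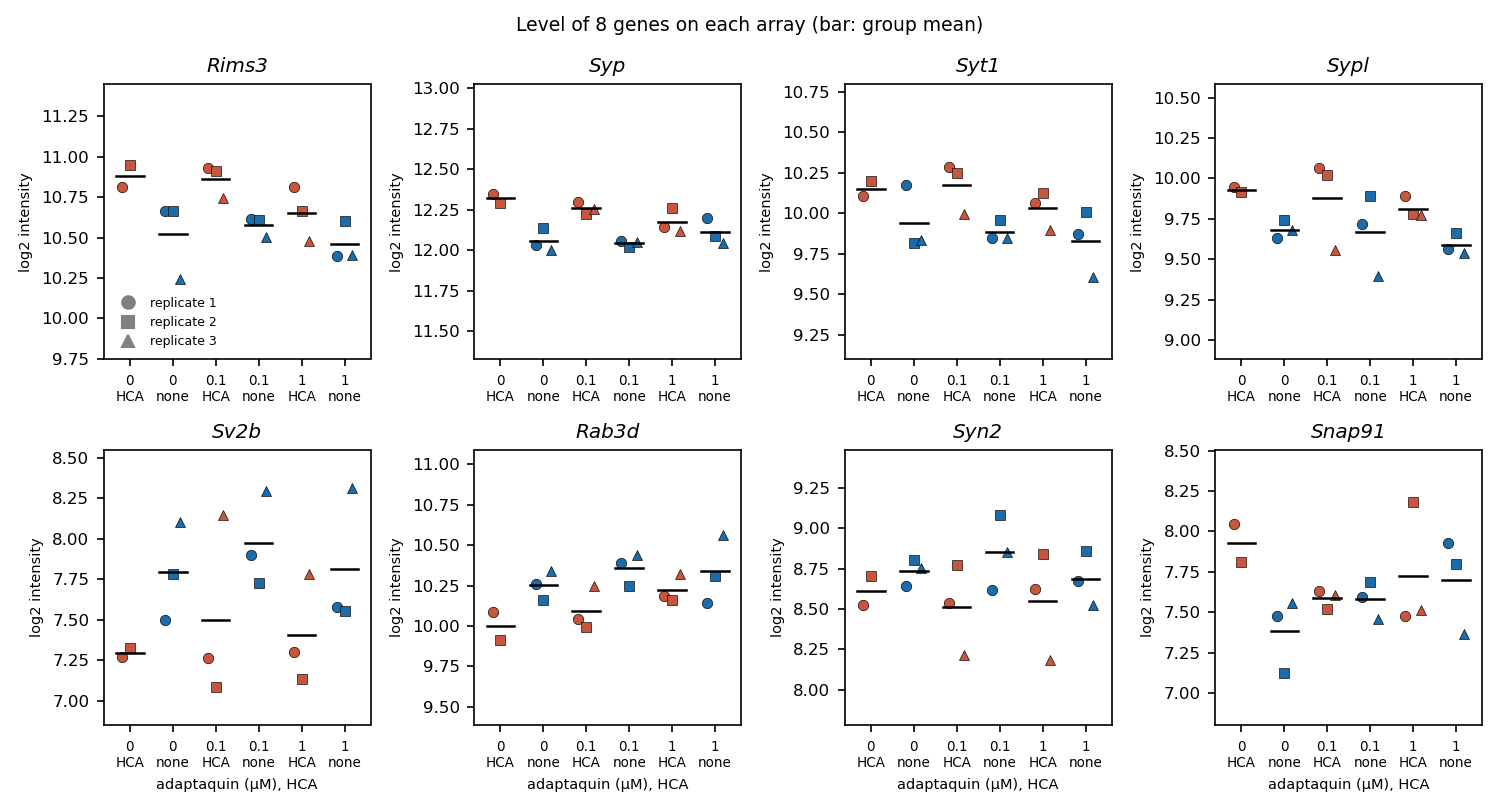
Log2 intensity on each array for the 7 vesicle genes called with HCA in either model and for Snap91, by adaptaquin dose (µM) with HCA (red) and without (blue). Circles, squares and triangles are replicates 1, 2 and 3, and bars are group means. The HCA groups of Rims3 and Syp sit above the groups without HCA at 0 and 0.1 µM, and the arrays numbered 3 of Sv2b sit above the others of their group.

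The fusion machinery itself gave no call with HCA in either model. Of the plasma membrane SNAREs, Stx1a (syntaxin 1A) had 11.15 and 11.17 with HCA alone, against 11.15, 10.95 and 11.04 in untreated neurons. Its mean change over the doses was 0.059 ± 0.047 (adjusted p = 0.49). Stx3, Stx4a, Snap23, Snap29 and Snap47, used in more general secretion, lay between -0.041 and 0.17, with Stx3, at 0.17 ± 0.23, the least certain of these. Stx3 was detected on 0 of 5 arrays of number 3, which HCA alone lacks, and its change was 0.077 with the replicate number.

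Among vesicle SNAREs, Vamp2 (synaptobrevin 2) had 11.94 and 11.73 with HCA alone, against 11.79, 11.60 and 11.85 in untreated neurons. Its mean change was 0.041 ± 0.060 (adjusted p = 0.74). Vamp7, which serves lysosomes and neurite growth, differed by 0.13 ± 0.065 (adjusted p = 0.22). Vamp1, Vamp3, Vamp4 and Vamp8 lay between -0.12 and 0.090.

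No regulator of SNARE assembly passed. Cplx1 (complexin 1) differed by 0.12 ± 0.064 (adjusted p = 0.29) and Cplx2 by 0.0069 ± 0.14 (0.98). Stxbp2, Stxbp4 and Stxbp5l, the last a tomosyn, which holds syntaxin back, lay between -0.13 and -0.0063. The 7 syntaxins of the Golgi, endosomes and endoplasmic reticulum (Stx5a, Stx6, Stx7, Stx8, Stx12, Stx17 and Stx18) lay between -0.12 and 0.061.

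Other probes of the same genes did not always go the same way. Of 13 vesicle genes with more than 1 probe above background, 4 had probes on opposite sides of 0 for HCA. For Stx6 the brightest probe differed by 0.050 and a dimmer one by -0.26 (adjusted p = 0.12, and 0.046 with the replicate number). In a fit across 12991 probes, 2 of 63 vesicle gene probes were called, those of Rims3 and Syp, against 9.82% of all probes. With the replicate number 7 of the 63 were called, against 17.8% of all probes. These were the probes of Rims3, Syp, Syt1, Sv2b and Rab3d, the dimmer one of Stx6, and a dim one of Stx8 at -0.24 (adjusted p = 0.017). In that fit Sypl (adjusted p = 0.0503) and Syn2 (0.051) missed the threshold.

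Adaptaquin gave no call in the family in either model. Unless stated, values in this paragraph and the next 2 are from the model without the replicate number. With the number, 0 of 46 passed for 1 µM averaged over neurons with and without HCA, where 16 of all genes rose and 4 fell. With 1 µM, 0 of 46 passed without HCA, where 0.146% of all genes did, and 0 passed with HCA, where 0% did. Averaged over both, 0 of 46 passed against 0.101% of all genes, and 2 of 46 had an unadjusted p under 0.05, against 3.52% of all genes. With 0.1 µM, 0 of 46 and 0% of all genes passed, and 0 of 46 had an unadjusted p under 0.05, against 1.86% of all genes. The median vesicle gene differed by 0.0095 at 0.1 µM and -0.037 at 1 µM. Cdkn1a, the p53 target p21, and Tfrc, the transferrin receptor, were listed as checks of the 1 µM dose. They were chosen with earlier results of these arrays known, so their rise is not independent evidence that the dose acted. They rose by 1.03 ± 0.14 (adjusted p = 0.0076) and 0.74 ± 0.10 (0.0071). With median scaling in place of quantile normalization neither passed, and 2 of all genes did. The 95% interval lay within 1.5-fold for 41 of 46 vesicle genes at 1 µM (89.1%), compared with 90.4% of all genes, and for 40 of 46 at 0.1 µM.

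Vamp1, the SNARE of fast neuromuscular and brainstem synapses, had the smallest p for 1 µM averaged over neurons with and without HCA. It was detected on 4 arrays with 1 µM and on 1 of the others, so it passed the filter through that dose. Its values were 5.49, 5.49 and 5.97 with HCA and 1 µM, against 5.35 and 5.20 with HCA alone. They were 5.55, 5.65 and 5.99 with 1 µM alone, against 5.56, 5.29 and 5.28 in untreated neurons. It was detected on 3 of 3 arrays with 1 µM alone and on 0 of 3 untreated arrays. With HCA it was detected on 1 of 3 arrays with 1 µM and on 0 of 2 with HCA alone. Since the filter was passed through these same arrays, the detection counts set no least size for the difference. The p-values and intervals of Vamp1 rest on the same selection and on levels near background, so they are not independent evidence of a rise. The 95% intervals of the 1 µM effect were -0.049 to 0.75 without HCA and -0.074 to 0.82 with HCA, and both included 0. That of the average over both was 0.062 to 0.66, but Vamp1 did not pass the adjusted threshold there. Averaged over neurons with and without HCA, dimmer probes of Vamp1, detected on 4 and 2 arrays, differed by 0.30 ± 0.20 and 0.042 ± 0.15. Among the next smallest p-values of that average, Syt16 differed by -0.21 ± 0.097 (adjusted p = 1.0) and Stx18 by -0.16 ± 0.074 (adjusted p = 1.0).

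Whether adaptaquin altered the response to HCA was tested as the HCA effect at 1 µM minus that at 0 µM. Here 0 of 46 passed, as did 0% of all genes, and Stx4a alone of the 46 had an unadjusted p under 0.05, against 1.73% of all genes. Stx4a, a syntaxin of regulated secretion, had 7.60, 7.89 and 7.88 with HCA and 1 µM, against 7.29 and 7.46 with HCA alone. It had 7.51, 7.44 and 7.80 with 1 µM alone, against 7.71, 7.41 and 7.75 in untreated neurons. The difference of effects was 0.46 ± 0.18 (adjusted p = 1.0). Its 1 µM effect with HCA, 0.41 ± 0.14 (adjusted p = 1.0, 95% interval 0.12 to 0.70), had the smallest p of the 46 for that comparison. The difference of effects for Snap91 was -0.52 ± 0.28 and for Syp -0.20 ± 0.11 (adjusted p = 1.0 each). The intervals of this difference lay within 1.5-fold for 23 of 46 genes, and those of the other genes reached beyond 1.5-fold.

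**Figure D3:**
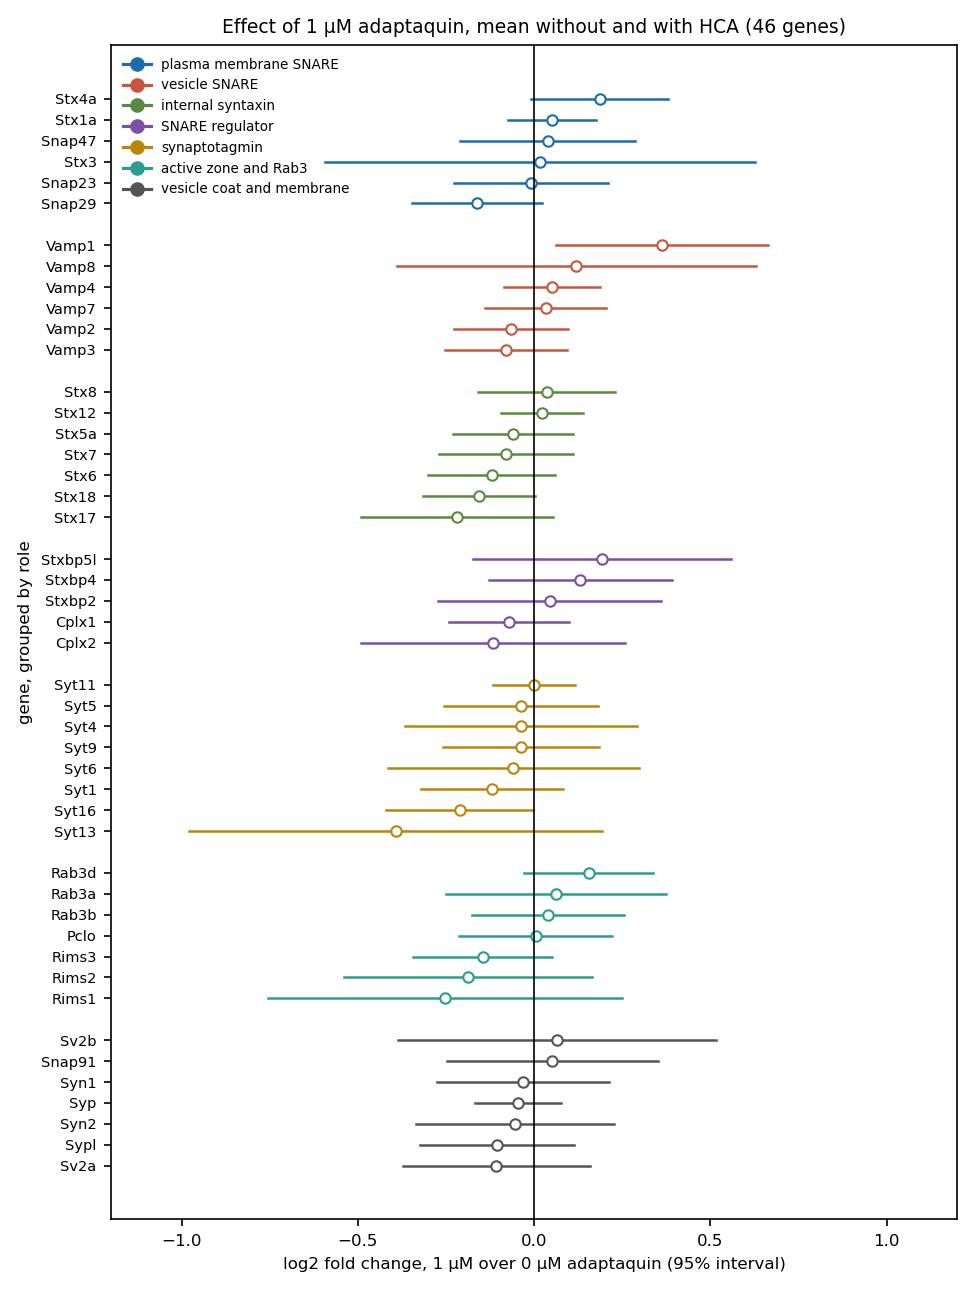
The log2 fold change with 1 µM adaptaquin over none, averaged over neurons with and without HCA, for the 46 vesicle genes ordered by role, with 95% intervals. No gene passed the adjusted threshold, and the points of Vamp1, detected on 5 of 17 arrays, and Syt13, detected on 10, include levels not above background.

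The samples also differed by replicate number. The number affected 17 of 46 vesicle genes (37.0%) at an adjusted p under 0.05 (limma F test), against 29.8% of all genes. The median largest gap between numbers was 0.207 for vesicle genes and 0.205 for all genes.

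The number was called for 4 of 5 SNARE regulators, 4 of 7 active zone and Rab3 genes, 4 of 7 vesicle membrane genes, 3 of 6 plasma membrane SNAREs, 2 of 8 synaptotagmins, 0 of 7 internal syntaxins and 0 of 6 vesicle SNAREs. The lowest mean lay in number 3 for 19 of 46 vesicle genes, against 3353 of all 8922. Syt4, a synaptotagmin of dense core vesicles, had arrays of 12.09 to 12.40 in number 3, 12.46 to 12.77 in number 2 and 12.71 to 12.86 in number 1. Its number 3 minus number 1 difference was -0.53 ± 0.063, and no array of number 3 reached those of the other numbers. Syn1 showed the same order, with 11.58 to 11.67 in number 3, 11.70 to 11.93 in number 2 and 11.91 to 12.05 in number 1.

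Other genes were highest in number 3. Rab3a had 12.49 to 12.69 in number 3, 11.995 to 12.33 in number 2 and 12.39 to 12.55 in number 1. Stxbp2, which pairs with syntaxins outside neurons, had 9.61 to 9.82 in number 3, against 9.15 to 9.37 in number 2 and 9.12 to 9.37 in number 1. Stx3 was detected on 6 of 6 arrays of number 1, 6 of 6 of number 2 and 0 of 5 of number 3, so it was not above background there and its call has no measured size. Syt13, also called, and Rims1, not called, were likewise detected on 0 of 5 arrays of number 3. The labels do not say whether a number stands for a culture, a day or a hybridisation.

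**Figure D4:**
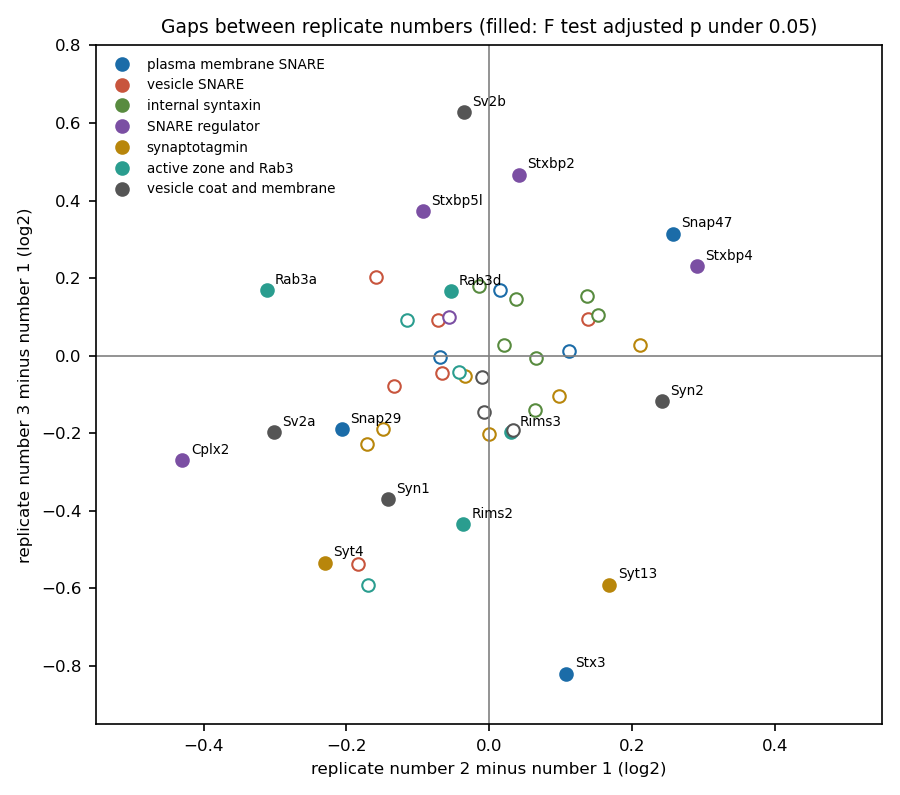
Replicate number 2 minus number 1 (horizontal, log2) against number 3 minus number 1 (vertical, log2) for each vesicle gene, with colours for roles and filled points for an adjusted p under 0.05. Sv2b (0.63) and Stxbp2 (0.47) lie highest on the vertical axis and Syt4 (-0.53) low, while the points of Stx3, lowest of all, Syt13 and Rims1 rest on levels not above background in number 3.

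Many genes for the contents of dense core vesicles rose with HCA. Of 20 cargo and processing genes listed, 15 passed the filter, and 8 rose and 0 fell (53.3% against 11.2% of all genes), with a median log2 change of 0.36. The list was drawn up with earlier results of these arrays known and is not independent evidence of its direction. Bdnf, the neurotrophin, rose by 2.13 ± 0.13 (adjusted p = 1.1e-07), with arrays of 7.60 to 8.41 with HCA against 5.35 to 6.41 without. Vgf, a granin-like peptide precursor, rose by 1.89 ± 0.16 (4.6e-06), with 9.02 to 9.73 against 7.14 to 8.30.

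Scg2 rose by 1.30 ± 0.18 (adjusted p = 3.2e-04), with arrays of 10.25 to 11.19 with HCA and 8.74 to 9.94 without. Chgb rose by 0.58 ± 0.088 (8.1e-04), with 9.69 to 10.07 against 8.99 to 9.66. For Bdnf, Vgf, Scg2 and Chgb every HCA array was above every array without HCA. Adcyap1 (PACAP) rose by 0.94 ± 0.13, the amidating enzyme Pam by 0.41 ± 0.11, Sst by 0.36 ± 0.078 and Scg3 by 0.23 ± 0.059. With single arrays left out, Pam passed in 8 of 17 fits (highest adjusted p 0.12) and Scg3 in 16 of 17, failing without HCA replicate 1 (0.078). Tac1, at 0.37 ± 0.12, did not pass (adjusted p = 0.056), nor did Chga, Npy or Cck. The mean log2 intensity of the 15 genes was 9.19 to 9.51 with HCA and 8.66 to 8.98 without. With 1 µM adaptaquin 0 of the 15 passed.

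Neighbouring parts of the vesicle cycle were called with HCA at shares near that of all genes, 11.2%: 2 of 20 endocytosis genes, 2 of 16 transporter and pump genes, 2 of 14 other vesicle membrane genes and 1 of 13 further active zone scaffolds. Of the endocytosis genes, Eps15, an adaptor of clathrin pits, rose by 0.87 ± 0.080 (adjusted p = 9.5e-06), with 8.73 to 9.11 against 7.84 to 8.30, and Bin1, an amphiphysin, by 0.19 ± 0.051. Of the transporter and proton pump genes, the pump subunits Atp6v0a1 and Atp6ap2 rose by 0.25 ± 0.056 and 0.24 ± 0.049. Of the other vesicle membrane genes, Scamp5 rose by 0.18 ± 0.044 and Scamp2 fell by 0.25 on the log2 scale. Among the scaffolds, Apba1 (Mint1) rose by 0.55 ± 0.16. None of 13 fusion cofactors, 6 exocyst and tethering genes or 15 other intracellular SNAREs passed. With the replicate number, where 20.6% of all genes were called, Napb and Cadps rose and Cadps2 fell among the cofactors, Sec22c rose and Vti1a fell among the SNAREs, and 0 of the exocyst genes passed. The calls were then 3 of 20 for endocytosis, 4 of 16 for transporters and pump, 4 of 14 for other vesicle membrane genes and 1 of 13 for scaffolds.

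Markers of other cells differed between the same arrays. With HCA, 5 of 8 astrocyte markers fell, with a median of -0.42, and their mean log2 intensity was 7.89 to 8.18 with HCA against 8.21 to 8.61 without. Of 10 progenitor markers, 5 fell, among them Nes at -0.73 ± 0.10, with a median of -0.25 and a mean log2 intensity of 9.33 to 9.69 with HCA against 9.63 to 10.04 without. Of 18 neuron markers, 1 was called: Thy1 rose by 0.54 ± 0.15, with a median of 0.061 and a mean log2 intensity of 10.39 to 10.50 with HCA against 10.23 to 10.50 without. Of 6 oligodendrocyte markers, Olig1 and Cnp fell. Of 8 GABAergic neuron markers, Gad1 rose by 0.41 ± 0.12 and Sst, also a cargo gene, rose. Of 5 vessel and fibroblast markers, Dcn rose by 0.49 ± 0.096, and 0 of 7 microglia markers passed. With the replicate number 6 astrocyte and 7 progenitor markers fell, Thy1 and Eno2 rose among the neuron markers, Mbp rose beside the fall of Olig1 and Cnp, and Flt1 fell beside the rise of Dcn. With median scaling 1 of 8 astrocyte and 2 of 10 progenitor markers were called. Their part in the vesicle gene results was not tested.

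**Figure D5:**
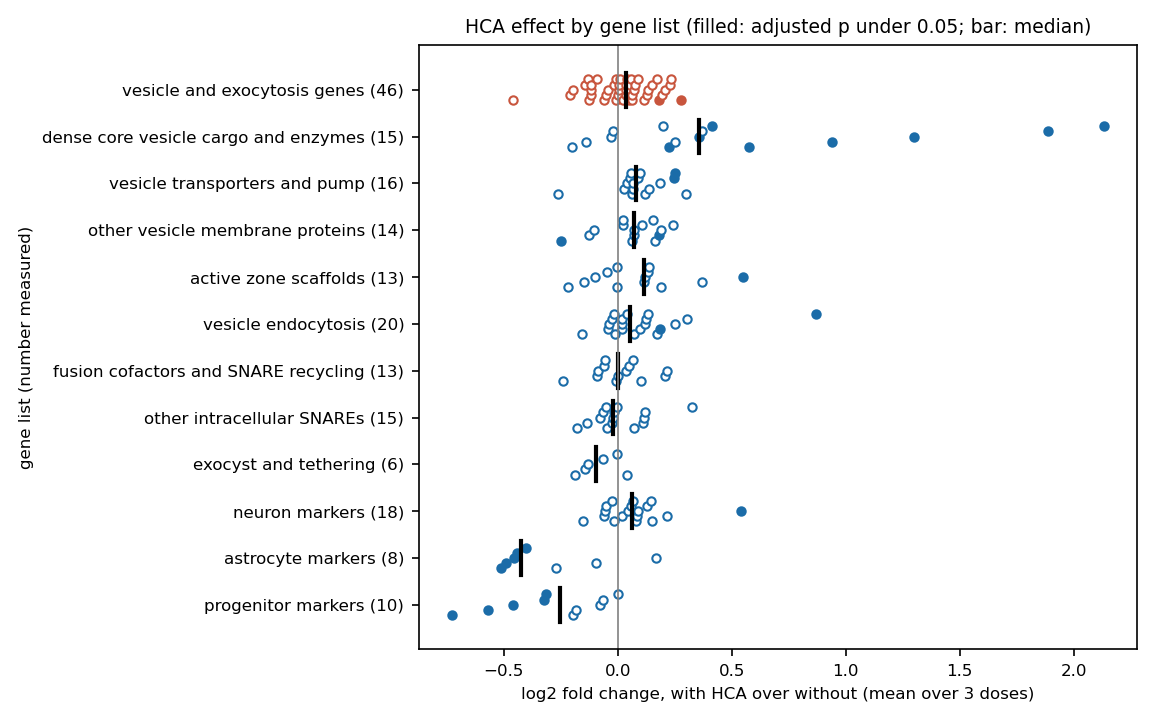
Median log2 fold change with HCA over without, averaged over the doses, for the vesicle genes (red) and other gene lists (blue), with each gene as a point, filled where called, and medians as bars. Dense core vesicle cargo, at a median of 0.36, lies to the right, astrocyte markers, at -0.42, to the left, and the vesicle genes at 0.036.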

How the data were processed

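The authors deposited bead array intensity per probe, not normalized between arrays, with a detection p-value per probe, for 18 arrays. A second deposited table holds log2 values for 17 arrays, which equalled a quantile normalization of log2 intensity to within 5.0e-09. No scanner software is named in the labels.

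The neqc function of limma 3.58.1 (R 4.3.3) estimated background through the detection p-values, added an offset of 16, and quantile-normalized 18 arrays on the log2 scale. The brightest of the probes passing the filter stood for each gene. Of 25697 probes, 23978 had 1 symbol, 0 had several, and 12991 passed. A model with 6 group means was fitted with limma (11 residual degrees of freedom), with 9 contrasts, each adjusted by the Benjamini-Hochberg method, two-sided. It was run on simulated data with noise independent between arrays. That simulation held no effect of replicate number, so it could not show how the model behaves where arrays deviate together. Arrays of the same replicate number, a number the labels give to every group, had residual correlations of 0.24 to 0.63 (40 pairs), against -0.46 to 0.061 for different numbers (80 pairs), so the numbers paired the arrays, and a model with the number was fitted beside the first.

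Genes named with values were those called in any contrast in either model, the 5 with the smallest p of a contrast with fewer calls, of which the text gives those that matter most, and the core release genes. Members and lists were chosen with earlier results of these data known. The number of arrays limits the precision.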

Additional observations from a re-analysis of the deposited data

How the results depend on the processing

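The count of 2 vesicle genes called with HCA over the doses became 4 without background correction and 4 on the authors' log2 values (Rab3d, Rims3, Syp and Syt1 in both), 0 with median scaling, and 7 with the replicate block. Leaving out single arrays gave 1 to 6, with 1 without HCA replicate 1, HCA replicate 2, HCA with 0.1 µM replicate 2, 0.1 µM replicate 3 or 1 µM replicate 3, and 6 without HCA with 0.1 µM replicate 3. Leaving out every array of 1 number, an alternative chosen after seeing the data, gave 0 to 1, the 1 being Sv2b without number 3. The replicate block moved the count at 0.1 µM to 1 and that of the cargo genes from 8 to 9. All other comparisons kept 0 vesicle genes in every setting run. The count of 17 genes for the replicate number became 11 to 17 without single arrays (11 without 0.1 µM replicate 2 or HCA with 1 µM replicate 3) and 3 to 11 without a whole number. The cargo count became 7 to 8 without single arrays, 6 with median scaling, and 3 to 7 without a whole number, lowest without number 2. Over all genes, 999 calls with HCA became 419 with median scaling and 1842 with the replicate block. Without background correction 522 of all genes rose and 575 fell, and on the authors' values 525 rose and 569 fell. Counts from fits that left arrays out have no share of all genes beside them here. They therefore do not show whether vesicle or cargo genes moved more or less than other genes. The Stx4a difference at 0.1 µM, 0.12, became -0.018 with the titled outlier included. Causes were not tested, beyond the fewer arrays. A slide block was not run, since the files name no slides.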

Other observations

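The third array of HCA alone, whose title calls it an outlier, had 40.9% of probes detected and an upper quartile of intensity of 241, both below the range of the 17 arrays used. The mean log2 intensity of the 46 vesicle genes on it was 9.17, inside the range of the other HCA arrays. Of these genes, 5 lay below and 4 above all 17 arrays (19.6%), compared with 28.4% of all genes. The 4 above were Stx1a, Stx4a, Stx6 and Rab3a, and the 5 below were Stx7, Syt6, Syt11, Rims2 and Syn2. Against the mean of the 2 other HCA-only arrays, Stx4a was 0.81 higher and Rims2 0.86 lower on the log2 scale. Syp and Rims3 differed by -0.063 and -0.002.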
